A study of Homo sapiens with 18 samples.

Results

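The 10 genes described here encode the alpha1 subunits of the voltage-gated calcium channels, the protein of each channel that forms the pore and senses voltage. They were taken by symbol from the 57905 Ensembl genes of the count tables, and all 10 were found. The cells were BE(2)-m17, an established neuroblastoma line of human origin. All cells carried the Sleeping Beauty vector pSBbi-Hyg-APP, a stably integrated APP transgene, and each line also carried either empty pSBbi-Pur ("Puro") or pSBbi-Pur-ABCC1(WT), which holds a codon-optimized cDNA of the exporter ABCC1 ("ABCC1"). Each line was sequenced from 3 libraries in each of 3 experiments named RNA1, RNA2 and RNA3, 18 libraries in all, with 14000000 cells plated per well and RNA extracted on the fourth day of culture. The study plated each line weekly, and the libraries of an experiment share 1 stably transfected line per vector, so the p-values measure the spread between cultures of these lines and not between transfections. The repeat experiments used cryopreserved and newly transfected cells, but the labels do not say which of RNA2 and RNA3 is which.

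Voltage-gated calcium channels open when the membrane depolarizes, and the calcium that enters triggers transmitter release, contraction and changes in gene expression. The alpha1 subunit sets the type of current. The Cav1 genes (CACNA1C, CACNA1D, CACNA1F and CACNA1S) encode L-type channels, the Cav2 genes (CACNA1A, CACNA1B and CACNA1E) encode the P/Q-, N- and R-type channels of nerve terminals and neurons, and the Cav3 genes (CACNA1G, CACNA1H and CACNA1I) encode T-type channels that open at low voltage. Cav1 and Cav2 channels also hold a beta subunit and an alpha2delta subunit, which bring the channel to the membrane and shape its current. Cultured neuroblastoma and other sympathetic cells are known for N-type current.

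The read pairs assigned to features numbered 27433393 to 57937653 per library in RNA1, 19577853 to 30996228 in RNA2 and 8866994 to 13332413 in RNA3. The exogenous ABCC1 sequence had at most 15 counts in any Puro library and at least 51035 in every ABCC1 library. The adrenergic neuroblastoma markers fit the label of the cell line: all 10 had counts, and their summed level was 10442 to 13352 CPM (counts scaled to library size) over the RNA1 libraries. The libraries differed in reads on genes that these cells are not known to use. The 363 olfactory receptor genes, taken here as the background, held 0.00496 ± 0.000412 CPM per kb of exon in RNA1 Puro, 0.570 ± 0.0842 in RNA2 Puro and 1.56 ± 0.0917 in RNA3 Puro (SD, n = 3). This background was lower with ABCC1, at 0.00412 ± 0.000298 in RNA1, 0.298 ± 0.144 in RNA2 and 1.23 ± 0.155 in RNA3. Every ABCC1 library lay below every Puro library of its experiment. ABCC1 replicate 1 of RNA2 stood apart with the lowest background of its experiment, 0.140 CPM per kb.

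Levels of different genes were compared as CPM per kb of exon. CACNA1B, the N-type subunit (chromosome 9, 140772241 to 141019076 on GRCh37), had the highest level of the 10 genes in all 6 groups. In RNA1 Puro its level was 14.5 ± 0.447 CPM per kb (SD, n = 3), or 65.6% of the summed level of the 10 genes. CACNA1H, a T-type subunit (chromosome 16, 1203241 to 1271771), followed at 6.54 ± 0.234 CPM per kb, and CACNA1D, a neuroendocrine L-type subunit (chromosome 3, 53528683 to 53847760), at 0.823 ± 0.145. The ranges of these 3 genes did not overlap one another. The RNA1 cells thus held mainly N-type transcripts, then one T-type transcript, and little of the others.

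The remaining 7 genes had means below 0.1 CPM per kb in RNA1 Puro. CACNA1I (T-type) stood at 0.0858 ± 0.0176 CPM per kb and CACNA1C, the cardiac and neuronal L-type subunit, at 0.0688 ± 0.0164, and their ranges overlapped. CACNA1G (T-type) had 0.0394 ± 0.0153 CPM per kb and overlapped CACNA1C. CACNA1E, the R-type subunit, had 0.0158 ± 0.00482 CPM per kb and CACNA1A, the P/Q-type subunit, 0.0126 ± 0.000919, and they overlapped each other. CACNA1F, the subunit of photoreceptor synapses, had 1 or 2 counts in each Puro library. CACNA1S, the skeletal muscle subunit, had 1, 0 and 0 counts, where 3 counts would be 0.0112, 0.0179 and 0.0154 CPM per kb. The last 4 of these genes did not pass the filter on low counts in RNA1.

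**Figure D1:**
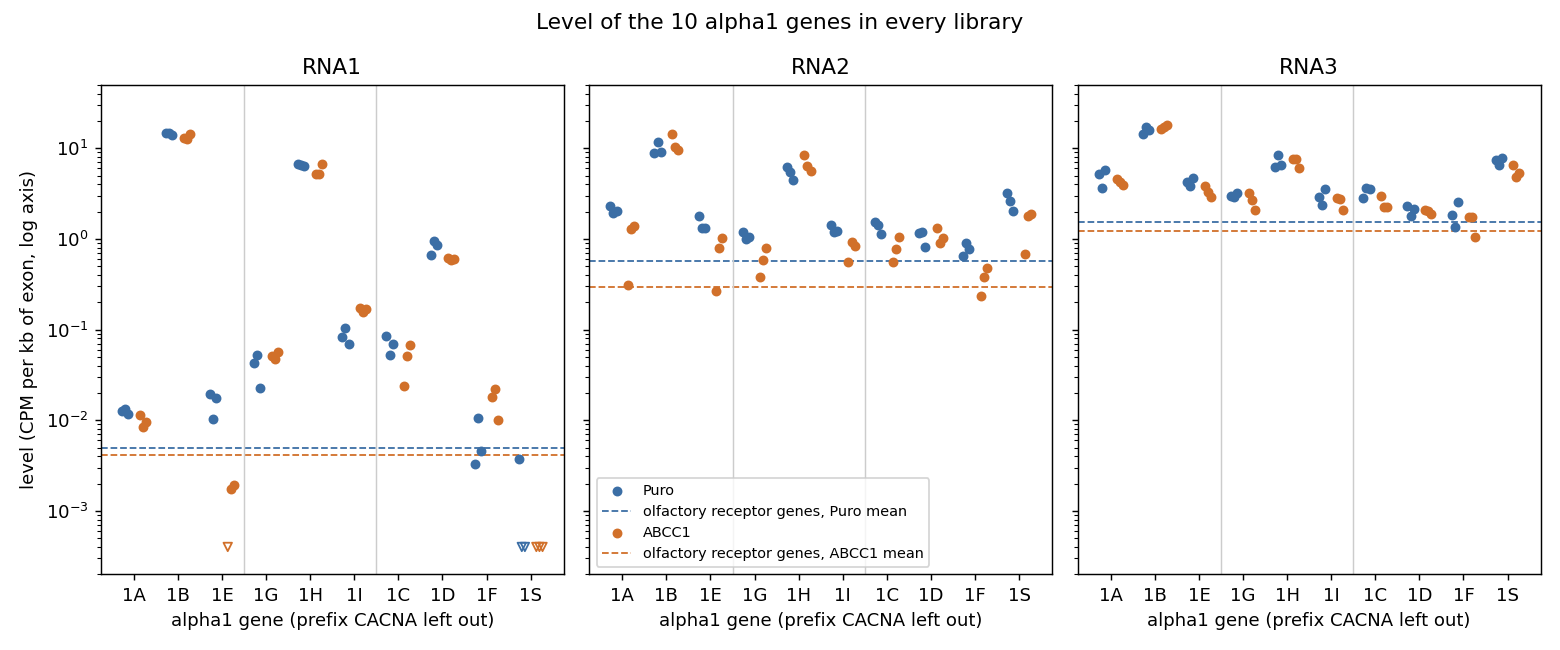
Level of each alpha1 gene in each library of RNA1, RNA2 and RNA3, in CPM per kb of exon on a log axis, grouped from left to right as Cav2, Cav3 and Cav1 genes. Blue points are Puro and orange points ABCC1 libraries, dashed lines are the group means of the olfactory receptor genes, and open triangles at the bottom stand for libraries with 0 counts. CACNA1B is highest in every panel, and the other genes lie closer to the dashed lines in RNA2 and RNA3 than CACNA1B does.

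The order below CACNA1B differed in the repeat experiments. CACNA1S stood at 2.62 ± 0.570 CPM per kb in RNA2 Puro and 7.24 ± 0.647 in RNA3 Puro (SD, n = 3), where it overlapped CACNA1H at 7.11 ± 1.23. CACNA1A reached 2.10 ± 0.185 and 4.83 ± 1.07 CPM per kb, and CACNA1E 1.48 ± 0.272 and 4.28 ± 0.451, both above CACNA1D at 1.06 ± 0.207 and 2.07 ± 0.248. CACNA1A, CACNA1E and CACNA1S, with at most 15 counts in any RNA1 library, had at least 263 counts in every Puro library of RNA2 and RNA3, and CACNA1F at least 101.

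Relative to the olfactory receptor genes of the same library, CACNA1B lay at 13.7 to 24.3 times the background in the RNA2 Puro libraries and 8.95 to 11.8 times in those of RNA3, against 2744 to 3046 times in RNA1. CACNA1S lay at 3.50 to 5.49 times the background in RNA2 Puro and 4.49 to 4.78 times in RNA3 Puro. CACNA1F lay at 0.995 to 1.90 times and 0.922 to 1.58 times, and CACNA1D at 1.41 to 2.50 times and 1.24 to 1.44 times. The 8 skeletal muscle markers were higher beside CACNA1S, from a summed 0.539 to 0.804 CPM in RNA1 Puro (TNNT3 and MYOD1 at 0) to 14.3 to 20.3 in RNA2 Puro and 32.5 to 44.6 in RNA3 Puro (none at 0), and the 8 photoreceptor markers from 13.9 to 15.7 (CRX at 0) to 82.0 to 100.1 CPM in RNA3 Puro (none at 0). Their part in these levels, and that of the background reads, was not tested. Library kit, instrument and cells differ together between RNA1 and the repeat experiments and cannot be told apart. In RNA from many cells, fewer cells that use a gene and less RNA of it per cell cannot be told apart either.

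The share of CACNA1B in the summed level was lower in the repeat experiments, at 36.5% ± 4.75 in RNA2 Puro and 30.05% ± 2.80 in RNA3 Puro (SD, n = 3), and was 43.6% and 38.4% with the olfactory receptor level of each library subtracted. Over all 18 libraries, the genes with the profile of log2 CPM most like that of CACNA1B among 13637 genes were ETS2 (r = 0.95), TRRAP (0.94), WDFY3 (0.94), CHD7 (0.93) and TET3 (0.92). These correlations are a description, since the libraries share the differences in kit and background between experiments.

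The 250 bases upstream of the RefSeq start (GRCh38.p14, not the build of the counts) are shown for CACNA1B, the gene with the highest level, and CACNA1I, the gene that rose with ABCC1 in RNA1. They were read from RefSeq for 8 of the 10 genes, and capitals mark CACGTG, the E-box that Myc and Max proteins can bind, searched on both strands without overlap with another motif.
CACNA1B, chr9:137877532-137877781, plus strand: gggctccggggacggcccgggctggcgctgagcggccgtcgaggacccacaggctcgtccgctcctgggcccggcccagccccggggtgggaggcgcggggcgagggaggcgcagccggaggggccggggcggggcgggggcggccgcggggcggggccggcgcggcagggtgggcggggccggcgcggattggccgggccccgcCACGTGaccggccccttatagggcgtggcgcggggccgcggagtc
CACNA1I, chr22:39570503-39570752, plus strand: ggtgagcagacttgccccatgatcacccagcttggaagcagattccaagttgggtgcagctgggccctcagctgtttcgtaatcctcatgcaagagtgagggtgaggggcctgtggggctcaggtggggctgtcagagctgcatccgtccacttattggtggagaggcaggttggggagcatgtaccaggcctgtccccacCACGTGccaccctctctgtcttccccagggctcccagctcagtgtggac
CACNA1B and CACNA1I held 1 E-box each and the other 6 sequences none, and 6.34% of the 35116 promoters in the table held at least 1. The GC box GGGCGG of Sp1 occurred 5 times before CACNA1B and not before CACNA1I (42.6% of promoters held it), and TATAAA occurred in none of the 8 (10.7% of promoters). GC content was 85.2% for CACNA1B and 60.8% for CACNA1I, against a median of 58% over all promoters. These matches describe the letters of the windows and not sites in use.

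The comparison of ABCC1 with Puro asks whether ABCC1 overexpression came with changed transcript levels. In RNA1, CACNA1I rose and CACNA1D fell. CACNA1I, the T-type subunit best known from thalamic neurons (chromosome 22, 39966758 to 40085742 on GRCh37), had 0.896, 1.14 and 0.761 CPM in the Puro libraries and 1.86, 1.70 and 1.83 CPM in the ABCC1 libraries. All 3 ABCC1 libraries lay above all 3 Puro libraries, and the ABCC1 libraries varied little (0.931 ± 0.191 against 1.79 ± 0.0806 CPM, SD, n = 3). The log2FC was 0.97 (SE 0.17, adjusted p = 0.00120 by edgeR's quasi-likelihood test, n = 3), with counts of 24 to 39 per library in Puro and 55 to 106 in ABCC1.

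CACNA1D had 7.49, 10.7 and 9.51 CPM in the Puro libraries of RNA1 and 6.98, 6.50 and 6.72 CPM in the ABCC1 libraries. The groups did not overlap, but the lowest Puro library lay near the highest ABCC1 library. The log2FC was -0.44 (SE 0.12, adjusted p = 0.0147 by edgeR, n = 3). Without Puro replicate 2 the adjusted p was 0.0620, and without Puro replicate 3 it was 0.0583. The call also ended with the background of each library as a covariate (log2FC -0.24, adjusted p = 0.542 by edgeR). That background separated the lines fully, so line and background can hardly be told apart in this fit. The call ended as well in a joint fit of the 18 libraries (log2FC -0.34, adjusted p = 0.453 by edgeR). The joint fit shared the spread and also redid the filter and the normalization over all libraries. CACNA1D shares 1399 of its 11218 exon bases (12.5%) with CHDH on the opposite strand, and the counting ignored strand and assigned no read that overlapped both genes. CHDH fell from 1.26 ± 0.247 to 0.631 ± 0.125 CPM in RNA1 (log2FC -0.92, adjusted p = 0.00740 by edgeR, n = 3), and its part in the change of CACNA1D was not tested.

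Thus 2 of the 6 alpha1 genes tested in RNA1 changed, where 37.6% of all 16995 genes tested did (17.9% higher and 19.7% lower with ABCC1). The groups of these 2 genes did not overlap, as for 50.4% of all genes. Markers of cell state moved in RNA1 too, and their part in these changes was not tested. Of the 10 adrenergic markers 6 fell and 2 rose, with a summed 12279 to 13352 CPM in Puro and 10442 to 12020 in ABCC1 (none at 0). Of the 7 mesenchymal markers tested (of 8) 4 rose, such as SNAI2 (log2FC 0.94), and 2 fell, such as FN1 (log2FC -0.89), with a summed 240.4 to 248.8 CPM in Puro (none at 0) and 254.3 to 271.5 in ABCC1 (COL1A2 at 0). The 4 other tested genes did not pass the threshold. CACNA1B had 149.3, 151.2 and 142.5 CPM in Puro and 132.9, 130.8 and 147.1 CPM in ABCC1 (log2FC -0.11, SE 0.05, adjusted p = 0.120 by edgeR). CACNA1H had 57.5, 55.2 and 53.6 CPM in Puro and 44.2, 44.6 and 56.4 CPM in ABCC1. ABCC1 replicate 3 lay within the Puro range for both genes, apart from the other ABCC1 libraries. Without that library 6 alpha1 genes and 7827 of all genes were called (against 2 and 6382), the alpha1 genes among them CACNA1B (log2FC -0.16, adjusted p = 5.55e-04), CACNA1H (-0.32, 4.87e-06) and CACNA1C (-1.06, 0.00900, all by edgeR). CACNA1C had a log2FC of -0.58 with all libraries (adjusted p = 0.222 by edgeR) and -0.20 without ABCC1 replicate 1 (adjusted p = 0.580).

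CACNA1E was too low in RNA1 for the filter. Its Puro libraries held 15, 5 and 10 counts, and its ABCC1 libraries held 0, 1 and 2. The groups did not overlap, and the ratio of ABCC1 to Puro over the summed counts was 0.0697, with an exact 95% interval of 0.0136 to 0.224. The interval covers the counting error of the summed counts only and leaves out the spread between cultures. PCR copies of one molecule were not marked, so even the counting error may be larger. Without the filter its log2FC was -3.62 (SE 0.71, adjusted p = 4.20e-06 by edgeR). The other untested genes showed less: CACNA1A had 14 counts in Puro and 16 in ABCC1, a ratio of 0.796 (0.364 to 1.76) after normalization, and CACNA1F had 4 and 16 counts, a ratio of 2.79 (0.899 to 11.5). The groups of CACNA1A did not overlap either, so at such low counts a lack of overlap says little by itself.

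**Figure D2:**
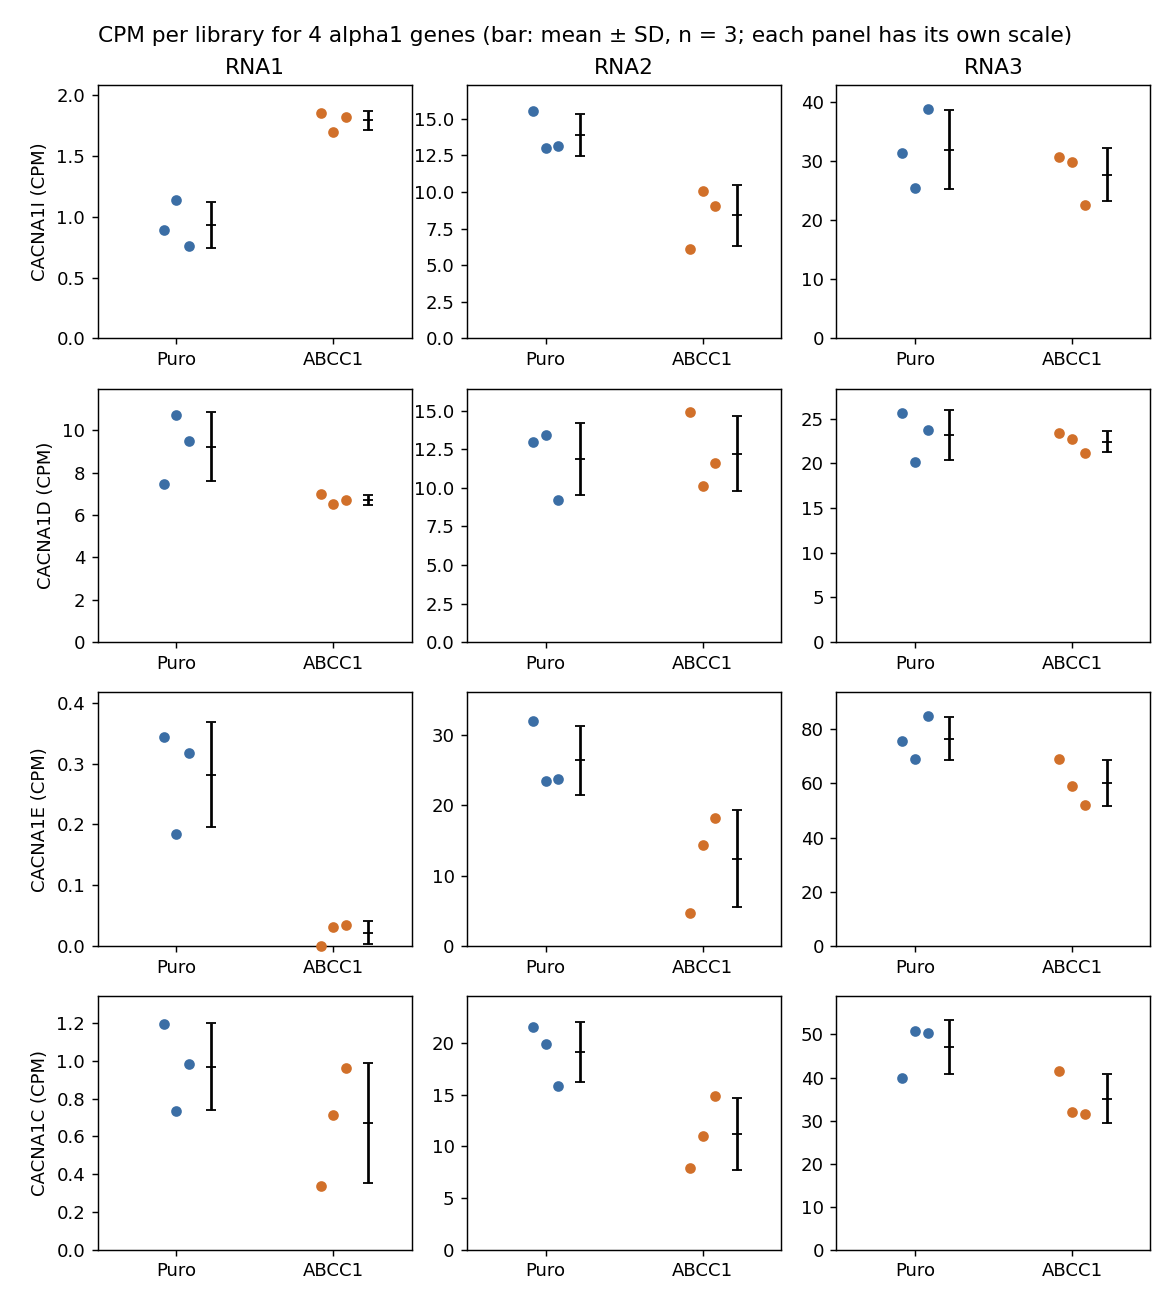
CPM of CACNA1I, CACNA1D, CACNA1E and CACNA1C in each library of the 3 experiments, with points for libraries and bars for the mean ± SD (n = 3); each panel has its own scale starting at 0. CACNA1I is higher with ABCC1 in RNA1 (1.70 to 1.86 against 0.761 to 1.14 CPM) and lower with ABCC1 in RNA2 (6.09 to 10.0 against 12.97 to 15.6 CPM).

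In RNA2, 7 of the 10 genes were lower with ABCC1 in every library, and none passed the threshold. All 10 genes were tested, and 1.7% of all 34091 genes were called, while 16.4% had every ABCC1 library below every Puro library. The 7 genes were CACNA1A, CACNA1C, CACNA1E, CACNA1F, CACNA1G, CACNA1I and CACNA1S, with log2FC from -0.73 to -1.09, unadjusted p from 9.47e-04 to 0.0105 and adjusted p from 0.0517 to 0.125 by edgeR. DESeq2 called 3 of them, CACNA1E, CACNA1F and CACNA1G, and 2843 of all genes where edgeR called 581. The median log2FC of the 10 genes was -0.80, against -0.19 over all genes tested. Marker lists of other cell types had medians near that of the alpha1 genes, -0.79 for 8 skeletal muscle, -0.89 for 8 photoreceptor, -0.72 for 6 astrocyte and -0.82 for 5 leukocyte genes tested. Their summed levels were 14.3 to 20.3, 43.2 to 49.1, 25.8 to 29.5 and 17.7 to 21.6 CPM in Puro, and 6.43 to 13.5, 27.1 to 36.1, 16.6 to 21.99 and 6.85 to 14.6 CPM in ABCC1, with no marker at 0. Their part in the shift of the alpha1 genes was not tested.

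CACNA1A had 25.1, 21.2 and 22.2 CPM in the Puro libraries of RNA2 and 3.35, 13.9 and 15.3 CPM in the ABCC1 libraries. CACNA1C had 21.5, 19.9 and 15.9 CPM in Puro and 7.88, 11.002 and 14.9 CPM in ABCC1. CACNA1I had 15.6, 12.97 and 13.2 CPM in Puro and 6.09, 10.0 and 9.07 CPM in ABCC1. ABCC1 replicate 1 was the lowest library for each of these genes, as it was for the olfactory receptor genes. Without it the log2FC was -0.64 for CACNA1A, -0.68 for CACNA1E and -0.49 for CACNA1S, against -1.08, -1.09 and -0.84 with it, and no alpha1 gene was called. Those background genes differed by -0.93 on the log2 scale between the RNA2 groups, and with their level in each library as a covariate the log2FC was 0.11 for CACNA1A, 0.01 for CACNA1E and 0.01 for CACNA1S. It stayed negative for CACNA1F (-0.63), CACNA1I (-0.30), CACNA1C (-0.28) and CACNA1G (-0.26). No alpha1 gene was called with the covariate, where 12 of all genes were. The covariate ran from 0.140 to 0.422 CPM per kb in the ABCC1 libraries and from 0.479 to 0.645 in the Puro libraries. With no overlap between the lines, such a fit can hardly tell line from background.

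The 3 other genes did not follow in RNA2. CACNA1B had 90.2, 118.5 and 91.7 CPM in Puro and 147.7, 106.4 and 98.8 CPM in ABCC1 (log2FC 0.23, SE 0.19, adjusted p = 0.474 by edgeR). CACNA1H had 52.7, 46.4 and 37.8 CPM in Puro and 71.8, 54.0 and 48.1 CPM in ABCC1 (log2FC 0.35, SE 0.18, adjusted p = 0.258 by edgeR). The groups overlapped for both genes and for CACNA1D (log2FC 0.04, SE 0.20), so the 3 genes with the highest levels in RNA1 were the 3 that were not lower with ABCC1 in RNA2.

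In RNA3 none of the 10 genes passed the threshold, where 2.8% of all 36509 genes tested did, and DESeq2 called none of them. CACNA1C had 39.8, 50.9 and 50.4 CPM in Puro and 41.6, 31.9 and 31.6 CPM in ABCC1, and the groups overlapped (log2FC -0.43, SE 0.16, adjusted p = 0.155 by edgeR). CACNA1E had 75.8, 68.9 and 85.0 CPM in Puro and 68.9, 59.1 and 52.0 CPM in ABCC1 (log2FC -0.35, SE 0.17, adjusted p = 0.293 by edgeR). CACNA1S gave a log2FC of -0.37 (SE 0.16, adjusted p = 0.231 by edgeR), and these 3 genes had an unadjusted p under 0.05, as had 5553 of all genes. CACNA1E was the 1 gene of the 10 whose groups did not overlap, narrowly, where 19.5% of all genes did not. The olfactory receptor genes differed by -0.34 on the log2 scale in RNA3.

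CACNA1B and CACNA1H, the genes with the highest levels in RNA1, had overlapping groups in RNA3. CACNA1B had 145.1, 175.5 and 161.6 CPM in Puro and 168.0, 174.9 and 184.7 CPM in ABCC1 (log2FC 0.13, SE 0.18). CACNA1H averaged 60.3 ± 10.4 CPM in Puro and 60.3 ± 7.69 CPM in ABCC1 (SD, n = 3). Exact permutation tests of single genes cannot go below p = 0.1 with 3 libraries against 3.

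**Figure D3:**
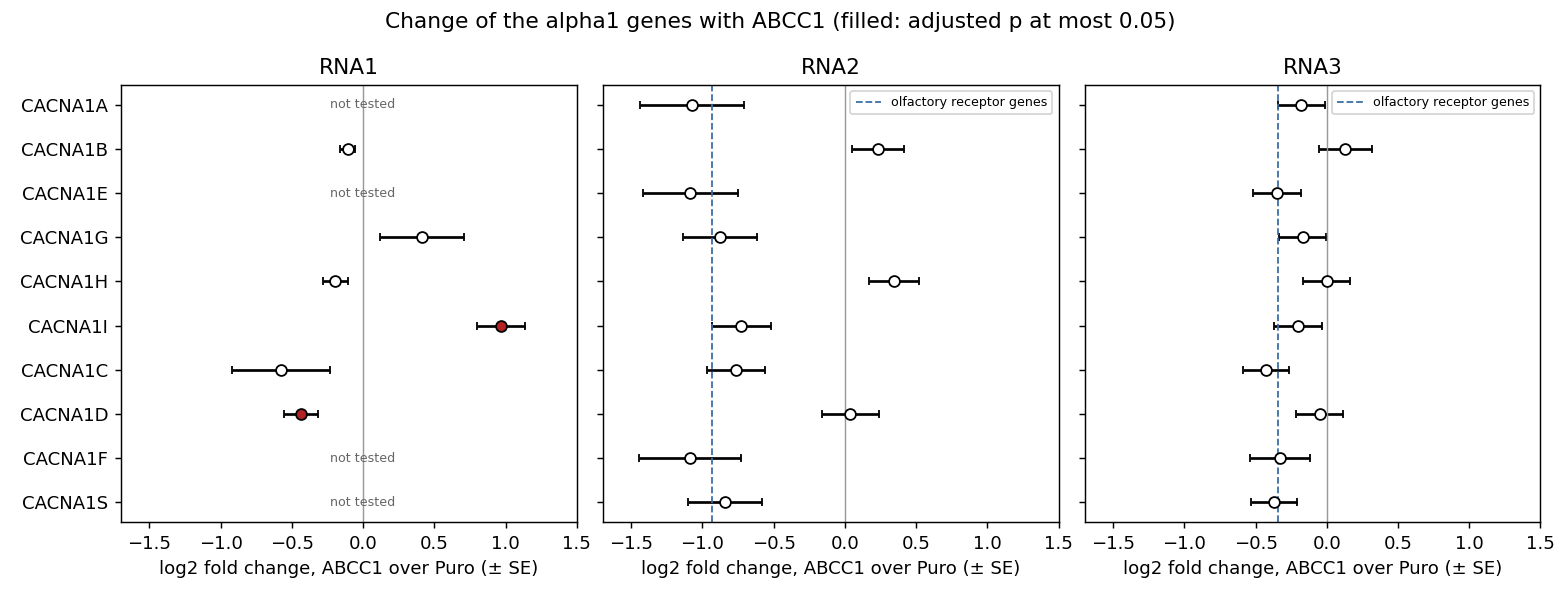
Log2 fold change of each alpha1 gene, ABCC1 over Puro, with its SE, in RNA1, RNA2 and RNA3. Filled red points passed an adjusted p of 0.05, and the dashed blue line is the log2 ratio of the olfactory receptor background (-0.93 in RNA2 and -0.34 in RNA3). CACNA1I and CACNA1D are the filled points in RNA1, and in RNA2 the 7 lower genes lie near the dashed line while CACNA1B, CACNA1D and CACNA1H lie near or above 0.

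A joint fit of the 18 libraries gave the mean effect of ABCC1 over the experiments and its difference between them. CACNA1C (chromosome 12, 2079952 to 2802108) and CACNA1E (chromosome 1, 181382238 to 181777219) were lower in the mean effect, where 12.9% of the 46225 genes tested were called and 3.55% were lower. The mean log2FC was -0.52 for CACNA1C (SE 0.13, adjusted p = 0.00456 by edgeR) and -1.62 for CACNA1E (SE 0.33, adjusted p = 6.66e-04 by edgeR). With the background of the RNA2 and RNA3 libraries as a covariate, CACNA1C was no longer called (-0.32, adjusted p = 0.203 by edgeR) and CACNA1E was (-1.15, adjusted p = 1.71e-04 by edgeR). This covariate did not act on RNA1, so the CACNA1E call is no test of the background. In separate fits with the covariate, CACNA1E had a log2FC of 0.0051 in RNA2 and 0.058 in RNA3. For CACNA1E the largest part came from RNA1, where it had 30 counts in Puro and 3 in ABCC1. CACNA1C shares 648 of its 14095 exon bases with its antisense genes CACNA1C-AS1 and CACNA1C-AS2, and reads that overlapped both genes were likewise not assigned.

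The effect on CACNA1I differed between the experiments. Its change in RNA2 was lower than in RNA1 by 1.78 on the log2 scale, and that in RNA3 by 1.19 (adjusted p = 2.69e-04 by edgeR's test of the interaction). It was the 1 alpha1 gene called in that test, where 1.19% of all genes were. In RNA1, CACNA1I lay at 15.3 to 19.4 times the olfactory receptor background in Puro and 38.5 to 41.4 times in ABCC1, and in RNA2 Puro and RNA3 Puro at 2.07 to 2.50 times and 1.62 to 2.21 times.

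Among the auxiliary subunits, 6 of the 12 tested in RNA1 changed, in both directions, against 37.6% of all genes. CACNA2D1, the alpha2delta-1 subunit that gabapentin binds, fell from 422.3 ± 5.78 to 265.4 ± 9.24 CPM (log2FC -0.67, SE 0.04, adjusted p = 7.92e-07 by edgeR, n = 3), while CACNA2D2 rose from 103.1 ± 6.69 to 122.1 ± 3.95 CPM (log2FC 0.24). The beta subunits CACNB2 (6.25 ± 0.469 to 3.72 ± 0.501 CPM, log2FC -0.76) and CACNB1 (19.1 ± 0.851 to 14.8 ± 1.23 CPM, log2FC -0.36) fell, and CACNB3 and CACNB4 did not pass. Of the gamma subunit family, whose members also include partners of AMPA receptors, CACNG8 rose from 0.252 ± 0.106 to 1.00 ± 0.248 CPM (log2FC 2.02) and CACNG5 fell (log2FC -1.44). None of the 16 auxiliary subunit genes passed in RNA2 by edgeR (1.7% of all genes did), where 3 had an unadjusted p under 0.05 (7243 of all 34091 genes). In RNA3 CACNG1 alone passed and fell (log2FC -1.22, adjusted p = 0.0484 by edgeR), where 2.8% of all genes passed.

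**Figure D4:**
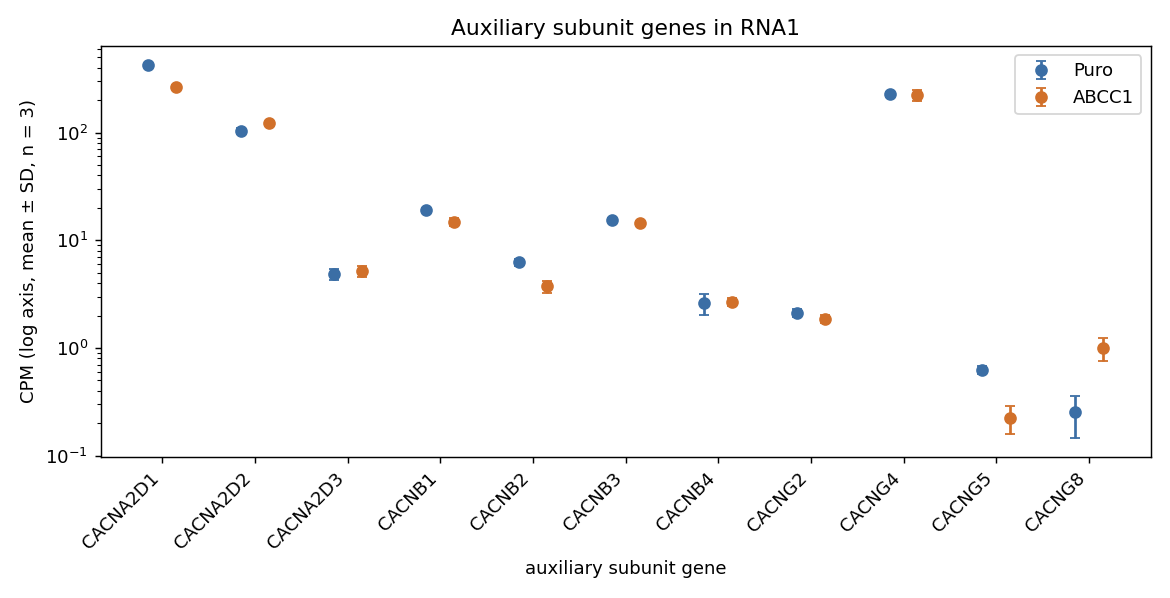
CPM of 11 auxiliary subunit genes in RNA1 on a log axis, as the mean ± SD of 3 libraries, with Puro in blue and ABCC1 in orange. CACNA2D1 is lower with ABCC1 (422.3 against 265.4 CPM), as is CACNB2, and CACNG8 is higher.

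Of the 16 channel regulators, 11 were tested in RNA1, where 3 rose and 3 fell (17.9% and 19.7% of all genes). GEM, a GTPase of the RGK family that inhibits these channels through the beta subunit, rose in all 3 experiments: from 42.7 ± 2.14 to 54.3 ± 2.36 CPM in RNA1, from 9.77 ± 2.93 to 16.9 ± 1.41 in RNA2 and from 14.3 ± 1.42 to 21.8 ± 2.19 in RNA3. The log2FC was 0.35, 0.78 and 0.61 (adjusted p = 6.21e-04, 0.0451 and 0.0333 by edgeR, n = 3). RRAD, of the same family, rose in RNA1 (log2FC 0.79), and STAC2, an adaptor of L-type channels, fell there from 29.8 ± 1.03 to 13.4 ± 1.31 CPM (log2FC -1.15). No regulator other than GEM passed in RNA2 or RNA3, where 1.7% and 2.8% of all genes did. In the release machinery that Cav2 channels serve, 5 of 16 genes fell in RNA1 (19.7% of all genes) and 2 rose (17.9%), RIMS1 (log2FC 1.43) and UNC13B (log2FC 0.21). None of the 16 passed in RNA2 or RNA3. Their median log2FC was 0.30 in RNA2 and 0.11 in RNA3, against -0.19 and -0.09 over all genes.

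Among the channels and pumps that act on calcium after entry, 9 of 21 tested genes fell in RNA1 (19.7% of all genes) and 3 rose (17.9%). ITPR1, an endoplasmic reticulum release channel, fell from 398.9 ± 13.5 to 318.6 ± 3.89 CPM, and ATP2B1, a plasma membrane calcium pump, from 226.9 ± 4.31 to 171.7 ± 4.74 CPM. In RNA3 STIM2 rose (log2FC 0.69) and no other gene of the list passed, where 2.8% of all genes did. In RNA2 none of them passed (1.7% of all genes did). Of the calcium-activated potassium channel genes, 8 were tested in RNA1, where 2 rose (17.9% of all genes), KCNN1 (log2FC 0.35) and KCNN2 (log2FC 0.24), and 2 fell (19.7%). KCNMB2, an accessory subunit of the BK channel, fell from 15.1 ± 0.853 to 0.111 ± 0.0217 CPM in RNA1 (log2FC -7.07, SE 0.15, adjusted p = 2.30e-10 by edgeR, n = 3). KCNN3, an SK channel, fell in RNA1 (log2FC -2.07) and in RNA2 (log2FC -0.82, adjusted p = 0.0307 by edgeR). No other gene of this list passed in RNA2 (1.7% of all genes did), and none passed in RNA3 (2.8%). Of 7 other cation channel genes with voltage sensors 5 were tested in RNA1, where NALCN and CATSPER3 fell (log2FC -2.31 and -1.69) and TPCN1 rose (log2FC 0.45), against 37.6% of all genes called. None of the 7 passed in RNA2 or RNA3.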

How the data were processed

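RNA was sequenced from 18 libraries. The authors aligned reads with STAR 2.7.3a and counted read pairs per gene over its exons with featureCounts of Subread 2.0.0, ignoring strand, on GRCh37. The deposited values are raw counts. Per the study's methods RNA1 was prepared with another kit and instrument than RNA2 and RNA3, although the labels of RNA1 name both kits.

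Each experiment was fitted separately with edgeR 4.0.16 in R 4.3.3 (filterByExpr at a minimum count of 10, TMM, robust quasi-likelihood test, two-sided). Benjamini-Hochberg adjustment ran over every gene tested, and a gene was called at 0.05 or less. Joint fits used all 18 libraries. CPM values used the TMM library sizes, and levels were divided by the merged exon length. The scripts were tested on simulated data. The alternatives were DESeq2 1.42.0, RLE size factors, other filters, the replicate number as a block, a shared spread, the background as a covariate and leaving out each library. The shared spread came from the joint fit, which also redid the filter and TMM over all 18 libraries, so its values differ from the separate fits in normalization too. In the joint fits, the covariate and the left-out libraries were added after seeing the data. Intervals are 95% and the floor was 3 counts, both for counting error only. The members, gene lists and rules for naming genes (every alpha1 gene, and the listed genes that passed) were chosen with earlier results of these data known.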

Additional observations from a re-analysis of the deposited data

Results flagged for a closer look

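The effect of ABCC1 differed between the experiments for 3 genes among the 10 alpha1 and 16 auxiliary subunit genes, by edgeR's interaction test, which called 550 of all 46225 genes (1.19%). CACNA1I (adjusted p = 2.69e-04) rose in RNA1 (log2FC 0.97) and had a log2FC of -0.73 in RNA2 and -0.20 in RNA3. CACNB2 (adjusted p = 0.0136) fell in RNA1 (log2FC -0.76) and had a log2FC of 0.30 in RNA2 and 0.42 in RNA3. CACNG8 (adjusted p = 2.69e-04) rose in RNA1 (log2FC 2.02) and had a log2FC of -0.19 in RNA2 and -0.33 in RNA3. Kit, instrument, background reads and cells differ together between RNA1 and the others and cannot be told apart here. Groups of 3 libraries are too small for a test of single outlying libraries.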

How the results depend on the processing

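The rise of CACNA1I in RNA1 and its difference between experiments were called under every alternative run for them, and the fall of CACNA1D was not with a shared spread (log2FC -0.34, adjusted p = 0.453) or the background covariate (-0.24, 0.542). Counts of calls and the signs below moved, and the cause was not tested. Every ABCC1 library had a lower background than every Puro library of its experiment, so the covariate and the line can hardly be told apart. CACNA1A, CACNA1E, CACNA1F and CACNA1S had at most 15 counts in any RNA1 library.

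In RNA1 the background covariate left 1 alpha1 gene and 1471 genes called, against 2 and 6382, the shared spread 1525 genes, and no filter gave 4 alpha1 genes (CACNA1H and CACNA1E added). Leaving out 1 library gave 1 to 6 and 4637 to 7827. In RNA2, against 0 and 581, DESeq2 called 3 and 2843, RLE size factors 1 and 1086, 10 or more counts per library 3 and 1366, no filter 4 and 1402 and the shared spread 7 and 4931, and the covariate called 12 genes. Leaving out 1 library gave 0 to 4 (CACNA1C, CACNA1E, CACNA1G and CACNA1S, without ABCC1 replicate 3) and 8 to 1359. In RNA3, against 1021 genes, DESeq2 called 1591, 10 or more counts 1725 and the covariate 142, and leaving out 1 library gave 394 to 2760 and 0 alpha1 genes.

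The labels do not say that a number marks a shared week or batch, so the numbers were not taken as pairs. Same-numbered libraries deviated together little (mean correlation -0.04, -0.06 and 0.04 in RNA1, RNA2 and RNA3), which does not settle whether they share a week. With the replicate block, CACNA1C was the 1 alpha1 gene called in RNA2 (-0.80, adjusted p = 0.0226 by edgeR), RNA3 had 1886 genes called, and CACNA1H in RNA3 was 0.00495.

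The covariate turned CACNA1A (0.11), CACNA1B (-0.22), CACNA1D (-0.28), CACNA1E (0.0051), CACNA1H (-0.014) and CACNA1S (0.0077) in RNA2, and CACNA1A (0.27), CACNA1B (-0.041), CACNA1D (0.17), CACNA1E (0.058), CACNA1F (0.42), CACNA1G (0.31), CACNA1I (0.29) and CACNA1S (0.031) in RNA3. CACNA1D turned in RNA2 with 10 or more counts (-0.044) and without ABCC1 replicate 1 (-0.12) or Puro replicate 3 (-0.10), and in RNA3 with DESeq2 (0.029), RLE (0.015) and the shared spread (0.035), ranging from -0.13 to 0.062 without 1 library. CACNA1H in RNA3 turned with DESeq2 (0.071), RLE (0.059), 10 or more counts (0.035), no filter (0.012) and the shared spread (0.074), ranging from -0.055 to 0.16 without 1 library.

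In the joint fit the covariate left 1 alpha1 gene in the mean effect and 2844 genes, against 2 and 5981. With 10 or more counts per library the mean effect was called for CACNA1C and CACNA1D (-0.26, adjusted p = 0.0315), and CACNA1E was not tested. The difference was called for 2 alpha1 genes with DESeq2 (894 genes, against 550) and with the covariate, CACNA1E being added, and for 356 genes with 10 or more counts. Leaving out 1 library gave 1 to 4 and 334 to 1111, the 4 without RNA2 ABCC1 replicate 3. With the background of genes without RNA1 counts subtracted, the share of CACNA1B was 41.5% and 35.3% in RNA2 and RNA3 Puro (43.6% and 38.4% with olfactory receptors), and 8 alpha1 genes lay at 2 times it or more in every RNA3 Puro library (5 with olfactory receptors).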
